A study of Homo sapiens with 6 samples.

Results

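The ATR and ATM checkpoint genes described here are 10 protein-coding genes that sense damaged or stalled DNA and stop the cell cycle: the sensors and loaders RAD9A and RAD17, the kinases ATR and ATM with the ATR partner ATRIP, the activator TOPBP1 and mediator CLSPN, and the effector kinases CHEK1, CHEK2 and WEE1. They were chosen by name, and all 10 were found among the 60708 gene identifiers counted. The libraries came from U2OS, an established human osteosarcoma line that maintains its telomeres without telomerase. In the 3 control libraries the cells had received the solvent DMSO, and in the 3 treated libraries they had received 25 µM of PDD00017273, an inhibitor of poly(ADP-ribose) glycohydrolase (PARG), for 4 days; these groups are called DMSO and PARGi. Both groups are the same unmodified line, so a single cell line stands behind every value.

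In this pathway the clamp loader RAD17 places a ring that contains RAD9A on DNA next to exposed single strands, TOPBP1 binds that ring and switches on ATR, which is held there by ATRIP, and CLSPN then presents CHEK1 to ATR. ATM responds mainly to double-strand breaks and activates CHEK2. CHEK1 and CHEK2 restrain the CDC25 phosphatases, and WEE1 phosphorylates the cyclin-dependent kinases directly, so all of these effectors hold back cell division. PARG removes poly(ADP-ribose) chains, which are made at DNA breaks and at replication intermediates. The checkpoint proteins are controlled largely by phosphorylation and degradation, and transcript levels do not report their activity.

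Total counts ran from 60286931 to 80605145 per library, and 29566 to 31636 genes had a count. The mesenchymal markers VIM, FN1 and COL1A1 were at 1560 CPM (counts scaled to a common library total) or more in every library, and CD44 and RUNX2 at 68.3 CPM or more. The group means of some mesenchymal markers moved apart: from DMSO to PARGi COL1A2, a collagen gene, went from 13 to 7.41 CPM, RUNX2 from 83.3 to 69 CPM and CD44 from 84.2 to 115 CPM. Their part in the results was not tested. Of the markers of other cells, EPCAM reached 3.78 CPM, PTPRC 1.32 CPM, CDH1 1.29 CPM and PECAM1 0.457 CPM, and ALB and CD3E had at most 3 counts in a library. TERT, which encodes the telomerase catalytic subunit, had at most 2 counts in a library.

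The genes lie, in GRCh38 coordinates of GENCODE 29, at chr1:35720218-35769967 (CLSPN, minus strand), chr3:133598175-133662380 (TOPBP1, minus), chr11:9573681-9593457 (WEE1, plus), chr3:142449235-142578826 (ATR, minus) and chr3:48446710-48467645 (ATRIP, plus). ATM is at chr11:108222484-108369102 (plus), CHEK1 at chr11:125625136-125676255 (plus), CHEK2 at chr22:28687743-28742422 (minus), RAD17 at chr5:69369293-69414801 (plus) and RAD9A at chr11:67317871-67398410 (plus). The files give 1 count per gene, so transcript forms of a gene are not separated.

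The promoter windows of 3 members are shown because they set the transcripts that rose, CLSPN and TOPBP1, beside CHEK2, which did not pass the test. Each runs from 250 bases before to 50 bases after the RefSeq transcript start on the gene's own strand (GRCh38.p14), with capitals for matches on either strand to 5 motifs: TTTCCCG as an E2F-like core, TTTGGCG as another such core, TTTCGCG as a further one, TTTGAA as the core of the cell cycle homology region, and the CCAAT box. The positions are chr1:35769929-35770228 for CLSPN, chr3:133661892-133662191 for TOPBP1 and chr22:28741771-28742070 for CHEK2, all on the minus strand.
CLSPN: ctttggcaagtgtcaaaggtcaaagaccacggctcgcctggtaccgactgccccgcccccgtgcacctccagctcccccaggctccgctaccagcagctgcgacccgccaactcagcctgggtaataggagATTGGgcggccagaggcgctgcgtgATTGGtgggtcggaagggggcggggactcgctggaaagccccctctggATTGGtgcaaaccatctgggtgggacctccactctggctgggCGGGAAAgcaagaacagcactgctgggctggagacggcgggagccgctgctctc
TOPBP1: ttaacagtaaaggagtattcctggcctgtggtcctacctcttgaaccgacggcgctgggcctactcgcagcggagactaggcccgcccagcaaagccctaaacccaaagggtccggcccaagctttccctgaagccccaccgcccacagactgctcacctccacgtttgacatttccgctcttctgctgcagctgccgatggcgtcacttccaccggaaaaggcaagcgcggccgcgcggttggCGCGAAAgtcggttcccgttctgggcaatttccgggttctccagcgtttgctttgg
CHEK2: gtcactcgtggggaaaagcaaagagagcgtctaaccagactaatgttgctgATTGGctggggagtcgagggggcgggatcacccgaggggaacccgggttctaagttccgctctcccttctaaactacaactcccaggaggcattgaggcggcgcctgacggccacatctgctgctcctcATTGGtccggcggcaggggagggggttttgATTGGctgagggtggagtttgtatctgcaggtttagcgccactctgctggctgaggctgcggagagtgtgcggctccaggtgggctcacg
In the CLSPN window the inverted TTTCCCG lay across the transcript start, and 3 inverted CCAAT boxes lay upstream of it. The TOPBP1 window held no CCAAT and had an inverted TTTCGCG ending at the start base. CHEK2 had 3 inverted CCAAT boxes, as CLSPN did, and none of the E2F-like cores. Of all 35116 windows of this length, TTTCCCG was present in 4.29%, TTTCGCG in 1.32%, TTTGGCG in 1.92%, TTTGAA in 15.2% and CCAAT in 34.6%. TTTCGCG was added to the search after the sequences had been seen. Among the 9 members with a window (15 windows, since some genes have several starts), TTTCCCG was found for CLSPN and ATR, TTTGAA for ATM and RAD17, TTTGGCG for none, CCAAT for 7 and the GC box GGGCGG, present in 45% of all windows and not capitalised above, for 8. These member counts are by gene, while the shares of all windows are by window. Counted by window, CCAAT was in 12 of the 15 and GGGCGG in 10, and some windows of a gene overlap. ATR, which also holds TTTCCCG, was not called (log2 fold change -0.039, edgeR adjusted p = 0.479). The 3 windows printed were chosen by outcome, and a link between motifs and changes was not tested. These are matches of letters, and binding was not measured.

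The comparison asked whether the transcripts of the checkpoint differed between PARGi and DMSO. CLSPN and TOPBP1 were higher and WEE1 was lower, each by 10.9% or less, while the kinases ATR, ATM, CHEK1 and CHEK2 did not pass the test. So 3 of the 10 members were called (adjusted p under 0.05 in edgeR's quasi-likelihood test, adjusted over all 20409 genes tested), and all 10 were abundant enough to be tested. Of all tested genes 24.3% were called, so the share among the members is near the background. The median log2 fold change of the members was 0.026, against -0.007 over all tested genes. By direction, 2 members were higher (13.2% of all genes) and 1 was lower (11% of all genes). With upper-quartile scaling 40.5% of the calls over all genes were higher, against 54.5% with the main scaling, and TOPBP1 was no longer called. In RNA from a whole culture, a change in the share of cells in a cell-cycle phase and a change in RNA per cell cannot be told apart.

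**Figure D1:**
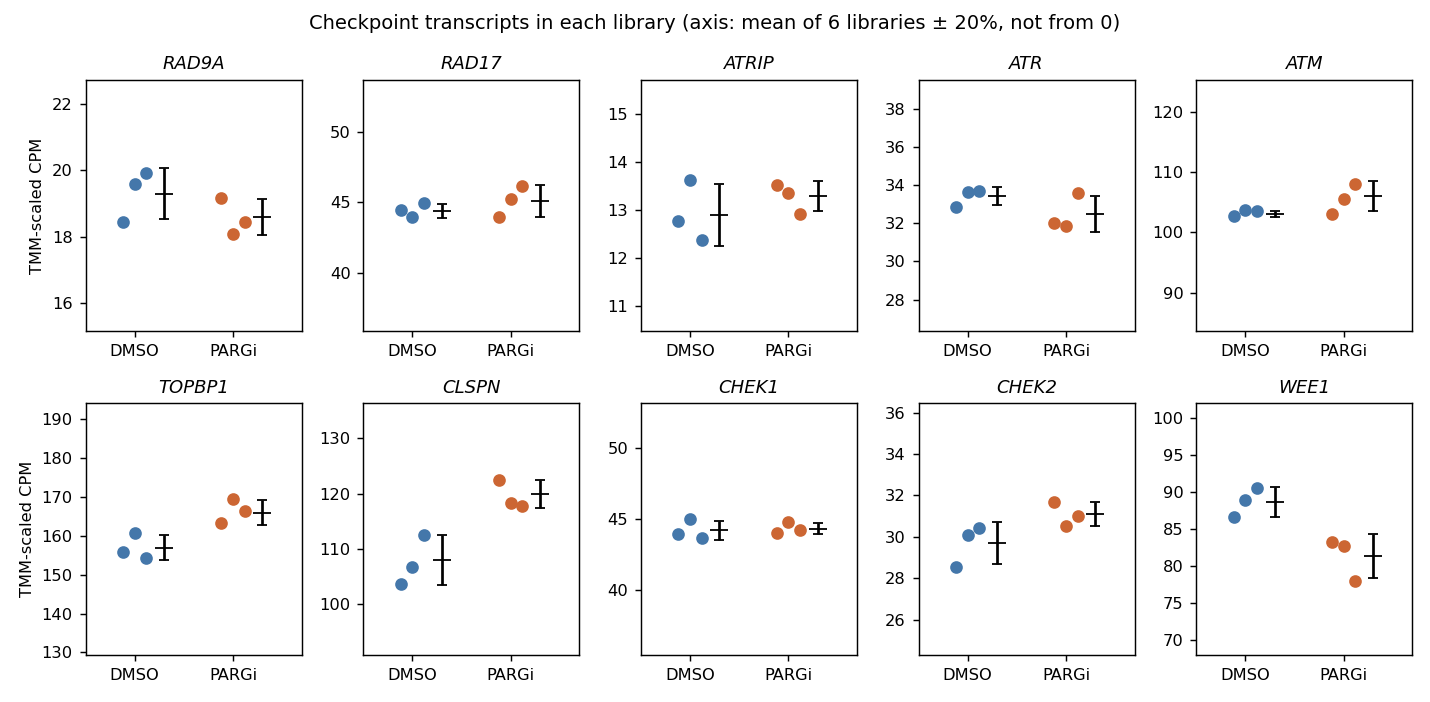
Scaled CPM of each checkpoint transcript (y axis, 20% either side of the mean, not from 0) in the 3 DMSO (blue) and 3 PARGi (orange) libraries, with the group mean and SD as bars. CLSPN, TOPBP1 and CHEK2 have all PARGi points above all DMSO points, WEE1 has them below, and the groups of the other 6 genes overlap. Of all tested genes, 38% had groups apart in either direction.

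The sensors and loaders did not pass the test. RAD9A, a subunit of the ring-shaped checkpoint clamp, was at 18.5, 19.6 and 19.9 CPM in DMSO replicates 1 to 3 and at 19.2, 18.1 and 18.5 CPM with PARGi replicates 1 to 3. The groups overlapped, and the interval of the change ran from -10.1% to 2.29% (log2 fold change -0.060, SE 0.045, edgeR adjusted p = 0.371). RAD17, which loads the clamp, was at 44.5, 44.0 and 44.9 CPM under DMSO and 43.9, 45.2 and 46.2 CPM with PARGi. Its lowest and its highest library were both PARGi, with an interval from -2.99% to 6.32% (log2 fold change 0.022, SE 0.032, edgeR adjusted p = 0.672).

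The apical kinases and ATRIP did not pass the test either. ATR, the kinase of stalled forks, was at 32.8, 33.7 and 33.7 CPM under DMSO and 32.0, 31.8 and 33.6 CPM with PARGi. PARGi replicate 3 lay among the DMSO libraries, and the log2 fold change was -0.039 (SE 0.036, 95% confidence interval of the change -7.54% to 2.43%, edgeR adjusted p = 0.479). ATRIP, which brings ATR to single-stranded DNA, was the least abundant member, at 12.8, 13.6 and 12.4 CPM under DMSO and 13.5, 13.4 and 12.9 CPM with PARGi. All PARGi libraries of ATRIP fell inside the DMSO range (log2 fold change 0.038, SE 0.052, interval -4.67% to 10.6%, edgeR adjusted p = 0.654). ATM, the kinase of double-strand breaks, was at 103, 104 and 104 CPM under DMSO and 103, 106 and 108 CPM with PARGi. PARGi replicates 2 and 3 were above all DMSO libraries and replicate 1 was not, and the log2 fold change was 0.030 (SE 0.027, interval -1.69% to 6.09%, edgeR adjusted p = 0.456). ATM had the narrowest interval of these 3 genes.

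The activator and the mediator rose. TOPBP1, which stimulates ATR through its own activating domain, was at 156, 161 and 154 CPM under DMSO and 163, 170 and 166 CPM with PARGi. All PARGi libraries lay above all DMSO libraries, although the gap between the nearest of them was small. Its mean went from 157 ± 3.29 to 166 ± 3.12 CPM (SD, n = 3 each), a rise of 6.07% (log2 fold change 0.085, SE 0.026, edgeR adjusted p = 0.0187). This call depended on single libraries: the adjusted p was 0.0695 without DMSO replicate 1, 0.12 without PARGi replicate 2 and 0.0686 without PARGi replicate 3 (edgeR). CLSPN encodes Claspin, the adaptor between ATR and CHEK1 that also travels with the replication fork. It was at 104, 107 and 113 CPM under DMSO and 122, 118 and 118 CPM with PARGi, again with separate groups. Its mean went from 108 ± 4.51 to 120 ± 2.54 CPM (SD, n = 3 each), a rise of 10.9% with a 95% confidence interval from 6.25% to 15.7% (log2 fold change 0.15, SE 0.030, edgeR adjusted p = 0.000609). CLSPN stayed past the threshold in all 16 alternatives tried. Of all tested genes, 39% had a larger absolute change than CLSPN and 58.9% a larger one than TOPBP1.

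Of the effector kinases WEE1 was called and CHEK1 and CHEK2 were not; whether their changes differ was tested only for the ratio of CHEK1 to CHEK2, given further on. CHEK1, the main target of ATR, was at 44.0, 45 and 43.7 CPM with DMSO and 44.0, 44.8 and 44.2 CPM with PARGi. Its groups lay on top of each other, with the smallest change of the 10 members (log2 fold change 0.005, SE 0.031, interval -4.08% to 4.91%, edgeR adjusted p = 0.941); the sign turned under several alternatives. CHEK2, the main target of ATM, was at 28.5, 30.1 and 30.4 CPM under DMSO and 31.7, 30.5 and 31.0 CPM with PARGi. The PARGi libraries were above the DMSO libraries by a narrow margin, as 38% of all tested genes had groups apart in either direction, and the change did not pass the test (log2 fold change 0.065, SE 0.037, interval -0.844% to 10.3%, edgeR adjusted p = 0.227). WEE1, which places the inhibitory phosphate on CDK1 and CDK2, was at 86.5, 88.9 and 90.5 CPM under DMSO and 83.2, 82.7 and 77.9 CPM with PARGi. All PARGi libraries of WEE1 were below all DMSO libraries, with replicate 3 the lowest. Its mean went from 88.6 ± 1.98 to 81.3 ± 2.94 CPM (SD, n = 3 each), so that WEE1 fell by 8.39% (95% confidence interval -12.2% to -4.39%, log2 fold change -0.13, SE 0.030, edgeR adjusted p = 0.00289). Without PARGi replicate 3 the log2 fold change was -0.095, with an edgeR adjusted p of 0.0494.

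**Figure D2:**
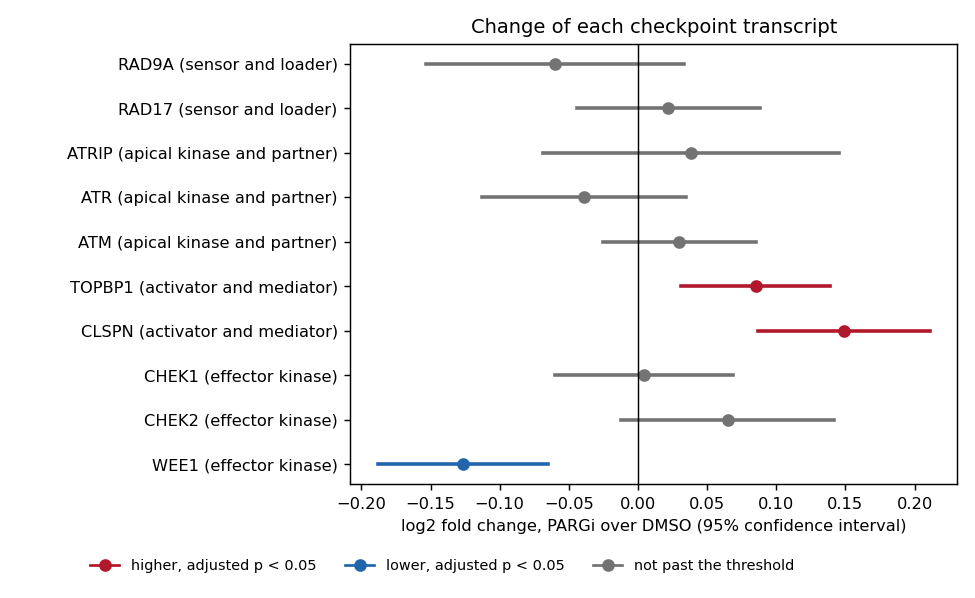
Log2 fold change of each checkpoint transcript, PARGi over DMSO (x axis), with its 95% confidence interval as a line; red is called higher, blue called lower and grey not past the threshold. The intervals of TOPBP1, CLSPN and WEE1 leave out 0, and those of the other 7 members include it.

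Summed over the 10 members, the DMSO libraries had 640.6 ± 9.25 CPM and the PARGi libraries 657.6 ± 2.01 CPM (SD, n = 3 each), a difference of 17 CPM. With upper-quartile scaling it fell to 5.84 CPM, less than the DMSO SD of 9.88 CPM, and the groups, apart with the main scaling, overlapped. Both the size of the difference and the separation of the groups thus depend on the scaling. Ratios within a library do not. The ratio of CHEK1 to CHEK2 counts was 1.54, 1.5 and 1.44 in DMSO and 1.39, 1.47 and 1.43 in PARGi, and the groups overlapped (exact two-sided permutation test on the log2 ratio, p = 0.2; this design cannot give a p below 0.1). The ratio of ATRIP to ATR counts was 0.389, 0.405 and 0.368 in DMSO and 0.422, 0.42 and 0.385 in PARGi, likewise overlapping (exact two-sided permutation test, p = 0.3).

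Levels of different genes were set side by side per kilobase of annotated exon (GENCODE 29, all exons of a gene merged). TOPBP1 came first, at 21.5 ± 0.45 CPM per kilobase in DMSO, followed by CLSPN at 19.9 ± 0.833, RAD17 at 10.7 ± 0.117 and WEE1 at 9.59 ± 0.214 CPM per kilobase (SD, n = 3). CHEK1 and CHEK2 followed at 6.74 ± 0.105 and 6.60 ± 0.221 CPM per kilobase, and their libraries overlapped in both groups. RAD9A was at 4.63 ± 0.185 and ATM at 4.31 ± 0.0205 CPM per kilobase in DMSO, apart there but overlapping in PARGi. ATR at 2.67 ± 0.0379 and ATRIP at 2.38 ± 0.118 CPM per kilobase closed the order in DMSO and did not overlap in either group. This last step turned with the length used: over the 3916 exon bases that ATRIP does not share with TREX1, a gene on its strand listed at 0, ATRIP was at 3.3 ± 0.163 CPM per kilobase in DMSO, above ATR. TOPBP1 and CLSPN were apart in DMSO and overlapped in PARGi, where they stood at 22.8 ± 0.428 and 22.1 ± 0.469 CPM per kilobase. On the CPM scale ATM was among the more abundant members, and its 23972 merged exon bases, against 5431 for ATRIP, put it low in this order.

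**Figure D3:**
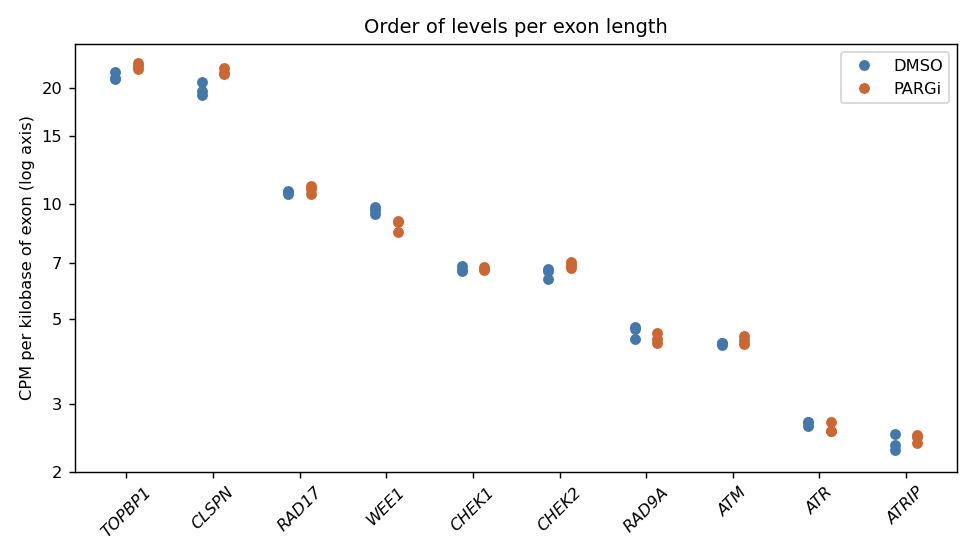
CPM per kilobase of merged exon (y axis, log scale) of the checkpoint transcripts in each DMSO (blue) and PARGi (orange) library, ordered by the DMSO mean. The order runs from TOPBP1 to ATRIP, with the places of ATR and ATRIP exchanged when exon bases shared with TREX1 are left out, and the spread between libraries is far smaller than the span between genes.

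Some counts are touched by neighbouring genes. ATRIP shares 27.9% of its exon bases with TREX1 on the same strand, and TREX1 was listed at 0 in all 6 libraries, so reads from the shared part may be missing from both. CHEK1 shares 80 exon bases with STT3A on its strand. The other overlaps with abundant genes are on the opposite strand, where the counts were taken as strand-specific: RAD9A with PPP1CA, RAD17 with TAF9 and AK6, ATM with NPAT and CHEK2 with HSCB. Among these neighbours HSCB, an iron-sulphur cluster co-chaperone that shares its start region with CHEK2, fell from 12.7 ± 0.437 to 11.4 ± 0.19 CPM (SD, n = 3 each, log2 fold change -0.15, edgeR adjusted p = 0.0323), while CHEK2 moved the other way without passing the test. NPAT, the histone gene coactivator that starts beside ATM, was at 39.5 ± 1.92 CPM under DMSO and 40.8 ± 0.0991 CPM with PARGi and was not called (edgeR adjusted p = 0.357). The 7 CHEK2 and 2 RAD17 pseudogene copies listed in the files had at most 1 count in a library, and WEE1P2 had at most 9. Whether reads that match both a member and a copy were left uncounted was not tested.

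The rest of the pathway was read from 7 lists of other genes, 69 in all, each of which was tested. Of these 69, 27 were called higher and 3 lower, 43.5% in all, with a median log2 fold change of 0.051. The lists were written from textbook knowledge with earlier results on these data known, and their share is a description beside the 24.3% of all genes. That background also takes in non-coding and scarce genes. With protein-coding genes fitted alone, 4382 of 14504 were called, a larger share, and the lists again had 30 calls. The 24.3% given beside each list is therefore a low mark for lists of coding genes.

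The partners of RAD17, RAD9A and TOPBP1 gave several rises. In the list of clamp, clamp loader and RPA genes 7 of 14 were higher and 1 was lower (median log2 fold change 0.089). That is 57.1% called, against 24.3% of all genes, and 6 to 10 were called over the alternatives. RFC3, a subunit of the loader that works with RAD17, rose from 61.9 ± 1.17 to 69.5 ± 0.768 CPM (log2 fold change 0.17, edgeR adjusted p = 0.000112). RFC2 of the same loader rose from 76.3 ± 1.23 to 83.1 ± 1.32 CPM (0.12, edgeR adjusted p = 0.00151), and RFC4 and RFC5 were called higher as well. RHNO1, which binds the clamp and TOPBP1, rose from 73.2 ± 1.44 to 80.8 ± 0.903 CPM (0.14, edgeR adjusted p = 0.000408). RFC1, of the loader for the replication clamp, was at 124 ± 2.15 and 128 ± 0.998 CPM and was not called. The exception in direction was ETAA1, which activates ATR independently of TOPBP1: it fell from 37.8 ± 1.68 to 33.9 ± 1.57 CPM (-0.16, edgeR adjusted p = 0.00529). HUS1B and RAD9B, the second copies of clamp subunits, were under 1 CPM. RFC4, RFC5, ETAA1, HUS1B and RAD9B were singled out after their values had been seen.

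Of 6 genes of fork protection and Claspin partners, 2 rose and none fell (33.3% called, against 24.3% of all genes). TIMELESS, which travels with CLSPN at the fork, rose from 163 ± 3.44 to 177 ± 2.01 CPM (log2 fold change 0.11, edgeR adjusted p = 0.00172), and WDHD1, which links the helicase to DNA polymerase alpha, rose from 84.4 ± 1.81 to 93.9 ± 0.512 CPM (0.15, edgeR adjusted p = 0.000142). DDX11, a fork helicase, was at 109 ± 1.14 and 112 ± 2.19 CPM and was not called.

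Around ATM, 2 of 12 break sensors and mediators rose, 1 fell and 9 were not called (25% called, against 24.3% of all genes). With an offset for GC content and length 6 of the 12 were called, and 5 with the replicate block added. BRCA1 rose from 66.5 ± 1.32 to 78.8 ± 1.68 CPM (log2 fold change 0.25, edgeR adjusted p = 6.08e-07), and the ubiquitin ligase RNF8 from 58.3 ± 1.08 to 66.9 ± 0.983 CPM (0.20, edgeR adjusted p = 1.25e-05). KAT5, the acetyltransferase that modifies ATM, fell from 55.3 ± 0.281 to 50.5 ± 1.13 CPM (-0.13, edgeR adjusted p = 0.0021). H2AX, the histone that ATM phosphorylates, was at 240 ± 13.1 and 248 ± 11.7 CPM and was not called. RAD50, at 3.23 ± 0.441 CPM in DMSO, shares 79.7% of its exon bases with an annotated gene on the same strand that was listed at 0, and was singled out for that reason; its level is uncertain.

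Downstream of CHEK1, CHEK2 and WEE1, 5 of 12 genes of the CDK switch were higher and 1 was lower. That is 50% called, against 24.3% of all genes, and 5 to 8 were called over the alternatives. CCNE1, the cyclin of the G1/S transition, rose from 78.2 ± 0.765 to 93.4 ± 0.47 CPM (log2 fold change 0.26, edgeR adjusted p = 8.45e-08). The WEE1 substrates rose while WEE1 fell: CDK2 went from 124 ± 2.4 to 143 ± 1.11 CPM (0.20, edgeR adjusted p = 2.09e-06) and CDK1 from 198 ± 3.98 to 226 ± 1.24 CPM (0.19, edgeR adjusted p = 4.43e-06). PKMYT1, the other kinase that places inhibitory phosphates on CDK1, rose from 61 ± 2.03 to 67 ± 0.899 CPM (0.14, edgeR adjusted p = 0.00163), opposite to WEE1. CDC25A, the phosphatase that removes those phosphates, rose from 47.3 ± 1.28 to 53.5 ± 1.23 CPM (0.18, edgeR adjusted p = 0.000188), whereas CDC25B and CDC25C were not called. CCNB1, the mitotic cyclin, was at 373 ± 6.44 and 386 ± 1.04 CPM and was not called, and the mitotic kinase PLK1 fell from 143 ± 4.9 to 134 ± 1.09 CPM (-0.094, edgeR adjusted p = 0.0142). PKMYT1, the CDC25 genes and PLK1 were chosen after their values had been seen.

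The list of 6 arrest genes downstream of ATM and CHEK2 also takes in the regulators MDM2 and MDM4. In it 5 rose and none fell (83.3% called, against 24.3% of all genes), at a median log2 fold change of 0.33. CDKN1A, the CDK inhibitor p21, rose from 116 ± 2.55 to 195 ± 5.47 CPM (SD, n = 3 each, edgeR adjusted p = 3.72e-15). The rises of CDKN1A (log2 fold change 0.74), BTG2 (0.34) and MDM2 (0.32) were larger than that of any of the 10 members. MDM2 is a ubiquitin ligase, and BTG2 an antiproliferative cofactor of mRNA deadenylation. MDM4, a relative of MDM2, was at 57.9 ± 1.43 and 55.8 ± 0.542 CPM and was not called (edgeR adjusted p = 0.199). Among 10 phosphatases and ubiquitin ligases that end checkpoint signalling, 4 rose and none fell (40% called, against 24.3% of all genes), and 3 to 5 were called over the alternatives. PPM1D, the phosphatase that reverses ATM, CHEK1 and CHEK2 phosphorylation, rose from 73 ± 1.35 to 82.7 ± 2.3 CPM (0.18, edgeR adjusted p = 4.86e-05). BTRC, the ligase subunit that targets CLSPN and WEE1 for degradation, rose from 35 ± 0.697 to 38.8 ± 1.36 CPM (0.15, edgeR adjusted p = 0.00306), and PPP2CB, a catalytic subunit of phosphatase 2A, from 71.4 ± 2.53 to 77.4 ± 0.618 CPM (0.12, edgeR adjusted p = 0.00418). USP7, the deubiquitinase of MDM2 and of CLSPN, was at 173 ± 5.51 and 176 ± 2.16 CPM and was not called.

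The kinases related to ATM and ATR and their assembly factors gave 2 rises among 9 genes (22.2% called, against 24.3% of all genes). TTI1, of the complex that stabilises these kinases, rose from 64.3 ± 0.845 to 71.1 ± 0.356 CPM (log2 fold change 0.15, edgeR adjusted p = 0.000335) and MTOR from 137 ± 0.879 to 147 ± 1.73 CPM (0.095, edgeR adjusted p = 0.00637). PRKDC, the break-repair kinase, was at 643 ± 10.1 and 644 ± 9.9 CPM and was not called (edgeR adjusted p = 0.951).

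**Figure D4:**
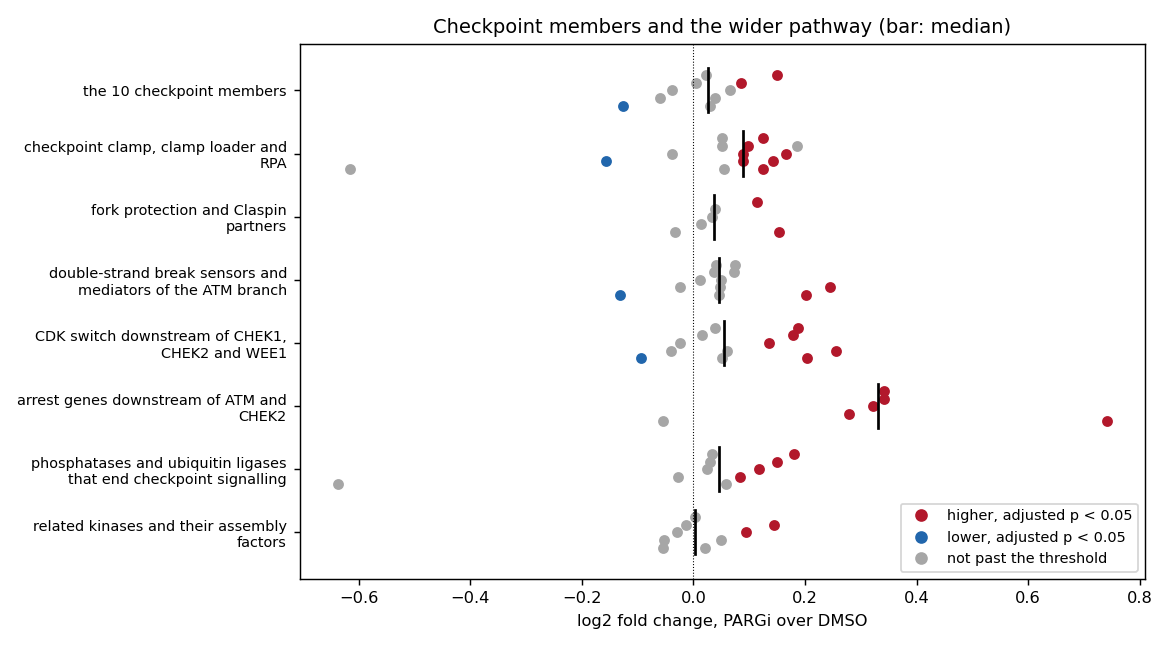
Log2 fold change, PARGi over DMSO (x axis), of the checkpoint members and of each gene in the 7 wider lists, with red called higher, blue called lower, grey not past the threshold and a black bar at the median. Most members lie near 0, the arrest genes reach 0.74, and the grey points near -0.6 are RAD9B and FBXO6, both under 1 CPM.

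For the 3 members with the smallest p, the transcripts most like them over the 6 libraries were found among 10138 genes averaging 10 CPM or more. Nearest to CLSPN were NCLN (Pearson's r = 0.997) and SCX (0.996). Nearest to WEE1 were AGAP1 (0.992) and C11orf96 (0.989), and nearest to TOPBP1 were THBS1 (0.999) and PTPN13 (0.998). These values rest on 6 libraries that share the treatment contrast, and the nearest were picked from many candidates. THBS1 went from 941 ± 13 to 979 ± 12.7 CPM and was not called itself (log2 fold change 0.058, edgeR adjusted p = 0.0683).

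**Figure D5:**
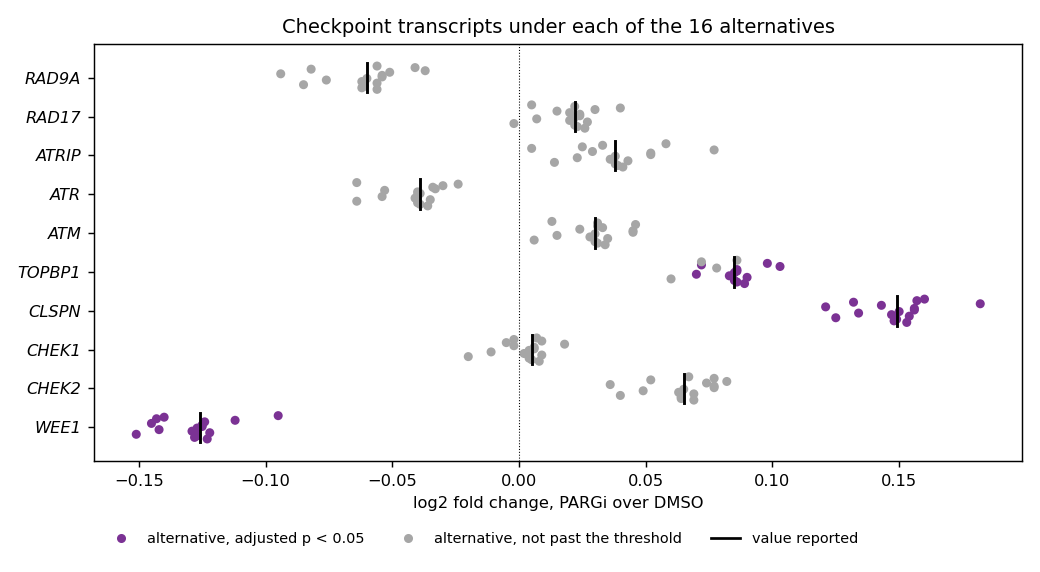
Log2 fold change of each checkpoint transcript (x axis) under each of the 16 alternatives, purple where the adjusted p was under 0.05 and grey where it was not, with the reported value as a black bar. CLSPN and WEE1 are purple throughout, TOPBP1 is grey in 4 alternatives, and the other 7 members are grey throughout.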

How the data were processed

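Per the labels' protocols, total RNA of U2OS cells was made into libraries with a stranded total RNA kit; the series describes 3 biological replicates per group. The deposited files hold unnormalised integer counts, a value for each gene. The submitters' processing notes name cutadapt 1.18, STAR 2.7.3a, SAMtools 1.9, DESeq2, deepTools and hg38, without roles; the annotation release and the strand setting are not given in the sources used here. Of 248 genes lying inside exons of abundant opposite-strand genes, 225 had counts, at a median density of 0.664% of the host's, so counts were taken as strand-specific. Groups came from the sample titles. Counts were tested with edgeR 4.0.16 (R 4.3.3): filterByExpr, TMM scaling (factors 0.9953 to 1.0068), glmQLFit and the two-sided glmQLFTest on treatment with the 6 libraries, and p-values were adjusted by Benjamini-Hochberg across 20409 genes at a threshold of 0.05. The script was tested on simulated data, with recovery judged at 1 CPM or more, a limit set after scarcer genes had been missed in that test. Recovery was required there only for differences far larger than those of the members. For differences of the members' size it is not given here, so that test does not vouch for their calls. CPM are TMM-scaled, with SD over 3 libraries. Standard errors were derived from the F statistic and the log2 fold change. No molecular identifiers are recorded, so counting error is a lower limit. Positions, lengths and overlaps came from GENCODE 29 (GRCh38), which holds 58440 of the 60708 identifiers, and promoters from RefSeq (GRCh38.p14), which has windows for 9 of the 10 members and none for WEE1. Figures were drawn with matplotlib 3.10.9.

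The members and gene lists were chosen with earlier results of these data known. All members were named; of each wider list, the called genes with the 3 smallest p and the most abundant uncalled gene; other genes are named as chosen after seeing values, or for overlap. Alternatives were DESeq2 1.42.0, limma-voom (limma 3.58.1), 2 other scalings, 2 other filters, protein-coding genes alone, the replicate number as a block, a loess offset on GC content and length (span 0.3) with and without that block, and each library left out. Chi-square per degree of freedom was 4.06 to 6.11 between DMSO libraries and 2.27 to 2.65 between PARGi libraries. No library was thus a repeat of another's counts. Whether libraries came from the same culture or RNA cannot be read from these values. 1 gene of a wider list is not reported here, and the list was counted without it.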

Additional observations from a re-analysis of the deposited data

How the results depend on the processing

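Over the 16 alternatives CLSPN kept a log2 fold change between 0.12 and 0.18 and WEE1 one between -0.15 and -0.095, both past the threshold each time, with edgeR, DESeq2 or limma-voom adjusted p up to 0.00977 and 0.0494. TOPBP1 stayed positive and lost its call with upper-quartile scaling (0.060, edgeR adjusted p = 0.111) and without any one of 3 libraries, so that 2 or 3 members were called. Signs turned only for members and named genes near 0. RAD17 was at -0.002 and CHEK1 at -0.020 with upper-quartile scaling, CHEK1 at -0.011 with protein-coding genes alone, and CHEK1 ran from -0.005 to 0.018 with a library left out. PRKDC was at -0.022 with upper-quartile scaling and -0.012 with protein-coding genes alone, and ran from -0.011 to 0.014 with a library left out. The summed level differed by 5.84 CPM with upper-quartile scaling, and by 11.6 to 19.6 CPM with a library left out. The count called in the wider lists ran from 26 to 39; with the GC and length offset the ATM branch had 6 calls in place of 3, and 5 with the block added, and H2AX and CCNB1 were called. The cause was not tested. ATRIP was at 3.3 in place of 2.38 CPM per kilobase in DMSO without the exon bases shared with TREX1, an alternative chosen after seeing the data. Same-numbered libraries did not deviate together (r from -0.008 to 0.016 over genes, 3 pairs). The labels state no pairing, and the numbers were taken to name replicates only. These values cannot show whether same-numbered libraries were handled together. With the replicate block 4553 genes were called, in place of 4951, and none of the 10 members and 26 list genes named by rule changed its call. Genes under 1 CPM were too shallow for changes of this size.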

Other observations

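Ratios between genes with opposed or coupled roles were taken after the values had been seen, and are given as values without a test. The ratio of TOPBP1 to ETAA1 counts, the activators of ATR, was 3.94, 4.28 and 4.26 in DMSO and 4.6, 5.24 and 4.91 in PARGi, a log2 difference of 0.24. The ratio of CDC25A to WEE1 counts, the phosphatase and the kinase that act on the same residues of CDK2, was 0.561, 0.517 and 0.523 in DMSO and 0.643, 0.661 and 0.671 in PARGi, 1.23 times higher. The ratio of CLSPN to CHEK1 counts was 2.36, 2.37 and 2.58 in DMSO and 2.78, 2.64 and 2.66 in PARGi, 1.11 times higher. The PARGi libraries lay above the DMSO libraries in each of these ratios, which do not depend on the scaling between libraries. Each ratio sets a gene called higher over one called lower or not called. That the groups lie apart follows largely from this choice and is no further result. With a library left out, the log2 difference stayed between 0.193 and 0.287 for TOPBP1 to ETAA1, between 0.282 and 0.34 for CDC25A to WEE1, and between 0.124 and 0.188 for CLSPN to CHEK1.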
